A study of Callithrix jacchus and Rattus norvegicus and Loxodonta africana with 31 samples.

Results

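The rat heart data are 2 columns of gene expression values, 1 from a female and 1 from a male. They were chosen by tissue label and are 2 of the 10 columns of the rat table, in a series of 31 samples that asks how Y-linked gene repertoires arose and are used across mammals. The hearts were set against the 6 columns of brain, kidney and liver, which come from 1 female and 1 male in each tissue. Polyadenylated RNA was sequenced, and expression is given in FPKM that the authors call normalized. FPKM divides the fragments of a gene by its transcript length and by the size of the library. All animals were untreated as far as the labels say, and strain, age, genotype and the part of the heart sampled are not stated. Each brain column has a name that fits both the frontal cortex and the cerebellum sample of that sex, so the region behind it is not known. A testis and an ovary column were used for values only. Where 2 values are given for a tissue, they are the female's and then the male's.

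Heart muscle contracts without pause throughout life. Its myocytes are packed with sarcomeres, in which thick myosin filaments pull on thin actin filaments anchored in the Z-disc, each beat being switched on and off by calcium that is released from and pumped back into the sarcoplasmic reticulum. The cells are coupled by intercalated discs and are fed by many mitochondria that burn mainly fatty acids, with glucose and lactate as further fuels. Brain shares excitable membranes with heart, and kidney and liver share a high oxidative capacity.

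The labels were checked against markers first. Of 7 tested ventricular myocyte markers 6 were higher in heart than in the mean of brain, kidney and liver. The share of all tested genes was 16.6%. Of the 7, 3 reached 1 FPKM in at least 2 libraries only through the hearts, and 3 of the other 4 were higher. The 8 markers of the list summed to 31979 and 51170 FPKM in the hearts, against at most 30.5 FPKM in any brain, kidney or liver library. Atrial markers were lower in level and mixed: Nppa, the atrial natriuretic peptide, had 325 and 199.8 FPKM in the hearts, whereas Myl7, the atrial myosin light chain, had 2.09 and 0.278 FPKM and Bmp10 was listed at 0 in both. Skeletal muscle markers were near 0 (13 genes, summing to 2.31 and 1.91 FPKM in the hearts). Markers of kidney epithelium summed to 26.5 and 0.254 FPKM in the hearts, against 0.526 to 5.96 FPKM in brain and liver and 21010 and 21119 FPKM in kidney, and Kap, an abundant gene of the renal tubule, gave 23.4 FPKM of the female heart's sum and was listed at 0 in the male heart. The nuclear FPKM of a column summed to 588797 in the female heart and 771007 in the male heart, against 205700 to 1651286 in the other 6. A sum of FPKM is not a depth, and the sequencing depth is unknown. An exact 0 can be a failed estimate in this table: Alb, the main plasma protein of the liver, was listed at 0 in both livers. In heart, 5 genes were at 0 in both libraries though above 1 FPKM in all 6 others. Such genes numbered 9 in liver, Alb among them, 1 in kidney and 0 in brain. Whether the zeros of the 5 heart genes are failed estimates was not tested.

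Of 14547 tested genes, 2421 (16.6%) were higher in heart than in the mean of the 3 other tissues and 2519 (17.3%) were lower. A gene counted when limma gave an adjusted p under 0.05 (Benjamini-Hochberg over all tested genes) and the difference in log2(FPKM + 1) was at least 1, with the animal as a block. Of the genes higher on the mean, 1239 were also higher than in each of brain, kidney and liver (8.52% of those tested), and 113 were higher by 5 log2 units or more. Of the genes lower on the mean, 232 were lower than in each of the 3 (1.59%), and 28 were lower by 5 or more. The 232 became 126 without the male heart, 524 with a pseudocount of 0.1 and 55 with a pseudocount of 5. The 3 single comparisons share the same heart libraries. Both hearts lay above all 6 other libraries in 2357 genes (16.2%). The median difference over all tested genes was -0.11, against which the lists below are read. Of the tested genes 496 reached 1 FPKM in at least 2 libraries only with the help of a heart, and 343 of these were called higher, a result that the filter favours. Of the 14051 that passed the filter on the other tissues alone, 2078 (14.8%) were called higher. The log scale with 1 added understates the difference of genes near 0. In bulk tissue, fewer cells of a type and less RNA per cell cannot be told apart.

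The sarcomere gave the widest differences. Of 45 listed genes of the thick filament, thin filament and Z-disc, 37 were tested and all 37 were called higher in heart, 36 of them against each tissue. Of these 37, 20 passed the filter only through the hearts, and the other 17 were all higher as well. Together the listed genes made up 11.3% and 13.8% of all nuclear FPKM in the hearts, against at most 0.0885% in any brain, kidney or liver library. The exception was Synm, synemin, an intermediate filament protein, with 2.22 and 2.18 FPKM in the hearts and 0.695 and 0.954 FPKM in brain, which was higher on the mean by 1.10 ± 0.15 log2 (estimate ± SE from limma, n = 2 hearts against 6 libraries, adjusted p = 0.00123) but not past the threshold against brain (0.81).

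In the thick filament, Myl2, the regulatory light chain of ventricular myosin, had 27014 and 44187 FPKM in the hearts, against 3.65 and 1.53 FPKM in brain, 0.453 and 5.73 FPKM in kidney and 1.31 and 25.3 FPKM in liver. It was the most abundant nuclear row in heart and also the one with the largest difference, 12.95 ± 0.76 log2 (adjusted p = 4.84e-05). The male liver value of 25.3 FPKM was the highest outside heart. Its partner Myl3, the essential light chain, had 4472 and 6329 FPKM in the hearts, against 0.466 and 0.305 FPKM in brain, 1.09 and 2.47 FPKM in kidney and 0.740 and 2.12 FPKM in liver, a difference of 11.34 ± 0.24. Of the heavy chains, Myh6, the fast alpha form that dominates the adult rat ventricle, had 939 and 1239.9 FPKM in the hearts and Myh7, the slow beta form, had 115 and 507 FPKM. Outside heart Myh6 had at most 1.18 FPKM and Myh7 at most 0.566 FPKM. Myh6 was the higher of the pair in each heart, and the male heart had the more Myh7. Mybpc3, the myosin-binding protein mutated in many inherited cardiomyopathies, had 520.1 and 495 FPKM in the hearts and at most 0.156 FPKM elsewhere. The smallest difference of the list was that of Myl4, the atrial essential light chain, at 10.9 and 5.42 FPKM in the hearts and 2.66 ± 0.29 log2. The median over the 9 tested thick filament genes was 7.84.

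In the thin filament all 11 tested genes were higher, with a median of 6.40. Actc1, cardiac alpha-actin, had 17645 and 31649 FPKM in the hearts, against 1.49 and 1.66 FPKM in brain, 0.0316 and 4.67 FPKM in kidney and 2.63 and 11.7 FPKM in liver. Its skeletal relative Acta1 had 1343 and 4128 FPKM in the hearts and at most 3.48 FPKM elsewhere. The cardiac form of troponin I, Tnni3, which makes the filament sensitive to adrenergic phosphorylation, had 1962 and 2104 FPKM in the hearts, against at most 2.07 FPKM in the other 6 libraries (difference 10.25 ± 0.18, adjusted p = 1.25e-06). Tnnc1, the calcium-binding troponin C, reached the highest level outside heart of the 3 tested troponin genes, with 1972 and 2377 FPKM in the hearts, 1.37 and 1.12 FPKM in brain, 17.4 and 18.7 FPKM in kidney and 1.09 and 3.18 FPKM in liver. Tpm1, a tropomyosin that many cells use, was well above 0 everywhere, at 2239.8 and 2545 FPKM in the hearts and 19.1 to 41.5 FPKM in the other 6. The foetal and slow skeletal forms Tnni1 and Tnnt1 were under 1 FPKM in every one of the 8 libraries and were not tested. Lmod3, a leiomodin that elongates thin filaments, had the smallest difference, 2.64 ± 0.19, at 7.36 and 3.84 FPKM in the hearts.

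In the Z-disc and the cytoskeleton around it, 17 of 17 tested genes were higher (median 5.31). Csrp3, the muscle LIM protein, had 1009 and 1388 FPKM in the hearts, against 0.0730 and 0.0844 FPKM in brain, 0.104 and 0.347 FPKM in kidney and 0.303 and 0.495 FPKM in liver. The difference was 9.92 ± 0.17 log2 (adjusted p = 1.25e-06), and it was of the same order for Ankrd1, a stress-responsive ankyrin repeat protein (9.80 ± 0.17), and Myoz2, which ties calcineurin to the Z-disc (9.80 ± 0.21). Des, desmin, the intermediate filament of muscle, had 477 and 616 FPKM in the hearts and at most 3.30 FPKM elsewhere. Dystrophin, Dmd, differed far less: 17.0 and 8.50 FPKM in the hearts, against 4.90 and 3.65 FPKM in brain, 1.27 and 0.845 FPKM in kidney and 4.11 and 5.70 FPKM in liver, a difference of 1.72 ± 0.26. Its values in heart and elsewhere still did not overlap.

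**Figure D1:**
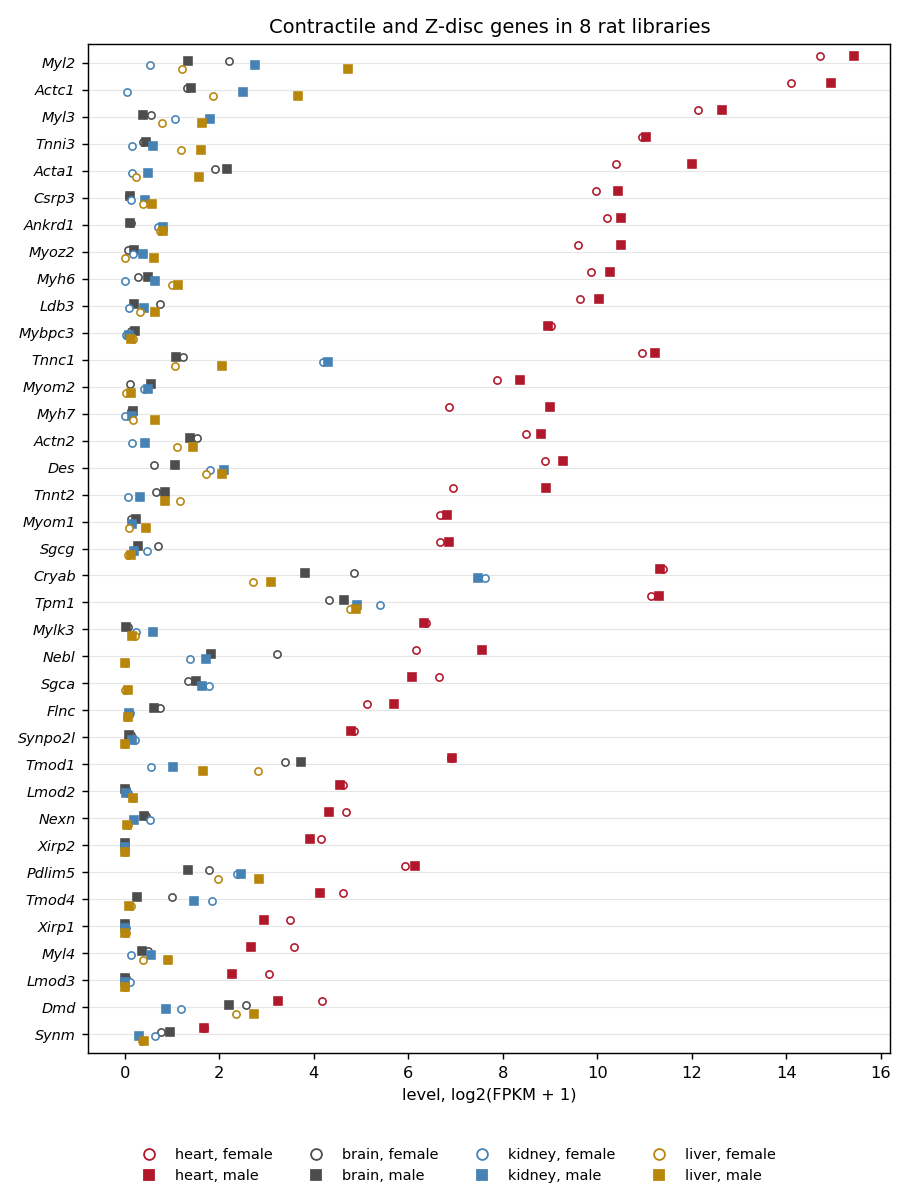
Levels of the 37 tested thick filament, thin filament and Z-disc genes, as log2(FPKM + 1) on the horizontal axis, in the 2 heart libraries and the 6 libraries of brain, kidney and liver; each mark is 1 library, open circles female and filled squares male. In all 37 genes both heart marks lie to the right of the other 6, from Myl2 at the top to Synm at the bottom. The same held for 2357 of all tested genes (16.2%). Of the 37, 20 passed the filter only through the hearts, which favours this order.

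Of the 19 calcium handling genes, all tested, 14 were higher in heart, 11 of them against each tissue, and 2 were lower. The median was 2.46. Of the 19, 5 passed the filter only through the hearts, and 9 of the other 14 were higher. Pln, phospholamban, the brake on the sarcoplasmic reticulum pump, had 7369.7 and 32362 FPKM in the hearts, against 2.35 and 4.26 FPKM in brain, 3.91 and 12.8 FPKM in kidney and 1.93 and 9.41 FPKM in liver. The female and male hearts stood far apart in this gene, yet the lower of them was 576 times the highest brain, kidney or liver value (difference 11.39 ± 0.31, adjusted p = 3.08e-06). The pump itself, Atp2a2, which all cells use, had 3024 and 2256 FPKM in the hearts, against 112 and 130.1 FPKM in brain, 38.7 and 52.5 FPKM in kidney and 42.8 and 47.5 FPKM in liver. Casq2, which stores calcium in the reticulum, had 495 and 339 FPKM in the hearts and at most 2.25 FPKM elsewhere. The release channel Ryr2 and the voltage-gated channel Cacna1c that triggers it are both used by neurons too. Ryr2 had 41.1 and 22.0 FPKM in the hearts, 3.29 and 4.58 FPKM in brain and at most 0.0421 FPKM in kidney and liver, and was higher than brain by 2.67 ± 0.31 log2 (adjusted p = 5.26e-04). For Cacna1c the values were 6.41 and 4.56 FPKM in the hearts and 1.15 and 1.29 FPKM in brain. Camk2d, the cardiac calmodulin kinase, was not called against brain (0.08 log2) but was higher than in kidney (2.95) and liver (4.26). The exchanger Slc8a1, which expels calcium in both heart and renal tubule, was not called against kidney, with 16.6 and 8.61 FPKM in the hearts and 14.5 and 5.99 FPKM in kidney.

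Fkbp1b, calstabin 2, which binds the cardiac release channel, was called lower (-2.31), but it was listed at 0 in both hearts and both livers, against 20.2 and 11.3 FPKM in brain and 8.69 and 4.91 FPKM in kidney. Whether these are failed estimates was not tested. The other lower gene was Itpr1, the inositol trisphosphate receptor that is abundant in Purkinje neurons, with 2.45 and 1.78 FPKM in the hearts, against 15.1 and 59.7 FPKM in brain, 11.0 and 5.83 FPKM in kidney and 1.51 and 1.19 FPKM in liver. Its call (-1.49 ± 0.50, adjusted p = 0.0399) was lost when either heart or any of 3 kidney and liver libraries was left out, with estimates of -1.80 without the female heart and -1.19 without the male heart.

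Among the membrane excitability genes the result depended on the tissue set against heart. Of 22 tested members 16 were higher in heart on the mean, and the other 6 were not called. Of the 22, 3 passed the filter only through the hearts, and 13 of the other 19 were higher. Heart was higher than kidney in 17 genes and than liver in 20, but it was higher than brain in 10 and lower than brain in 4, and the medians were 0.69 against brain, 2.23 against kidney and 2.82 against liver. Over all tested genes those 3 medians were 0.09, 0 and 0. Scn4b, an accessory subunit of sodium channels, was not called against brain (-0.39). Kcnip2, an auxiliary subunit of the transient outward potassium current, was the list's largest difference, with 349 and 307 FPKM in the hearts, against 12.0 and 16.0 FPKM in brain, 0.288 and 0.352 FPKM in kidney and 1.72 and 1.26 FPKM in liver. The pore-forming Kcnd2 of that current was lower in heart than in brain, at 2.09 and 3.76 FPKM in the hearts and 6.89 and 16.0 FPKM in brain (-1.59).

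Other channels divided by tissue. Kcnj11, the pore of the ATP-sensitive potassium channel, was higher than in each tissue (57.9 and 71.6 FPKM in the hearts, against 6.36 and 7.74 FPKM in brain and at most 0.375 FPKM in kidney and liver). Kcnq1, whose current helps to end the cardiac action potential, had 10.6 and 20.2 FPKM in the hearts and 9.80 and 19.9 FPKM in kidney, and these did not differ by the test (0.06 ± 0.30, adjusted p = 0.918), while brain and liver were at 0.229 FPKM or less. Kcnj3, Hcn2 and Kcnh2 were called against kidney and liver but not against brain. Fxyd1, phospholemman, the regulator of the sodium pump, was the most abundant member at 1393 and 2149 FPKM in the hearts and was also high in liver (262 and 556 FPKM). Hcn4, the main pacemaker channel of the sinus node, had 0.170 and 0.474 FPKM in the hearts.

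All 13 intercalated disc genes were tested, and 10 were higher in heart, 7 of them against each tissue (median 1.87). Of the 11 that passed the filter without the hearts 9 were higher. Gja1, connexin 43, the gap junction protein of working myocardium and of astrocytes, had 289.5 and 254 FPKM in the hearts, against 56.1 and 39.6 FPKM in brain, 3.62 and 4.94 FPKM in kidney and 5.08 and 5.51 FPKM in liver. Its difference of 4.55 ± 0.22 (adjusted p = 2.38e-05) was the largest of the list. The desmosomal genes Dsp and Pkp2 were higher than in each tissue, Dsp with 29.8 and 30.1 FPKM in the hearts and at most 3.63 FPKM elsewhere. Dsg2, Dsc2 and the cadherin Cdh2 were not called against liver, where Dsc2 had 6.58 and 10.7 FPKM, against 9.65 and 5.89 FPKM in the hearts. Cxadr, a junction protein also known as the coxsackievirus receptor, had the smallest difference (0.12) and was not called.

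Among hormones and receptors, 8 of 15 tested genes were higher, 6 of them against each tissue, and 1 was lower (median 1.06). Of the 15, 5 passed the filter only through the hearts, and 3 of the other 10 were higher. The count was 5 with a pseudocount of 5 and 2 of 9 when rows had to be above 0 in all 8 libraries. The natriuretic peptide genes led. Nppb had 480.1 and 944 FPKM in the hearts, against 0.0991 and 0.0592 FPKM in brain, 0 and 0.0955 FPKM in kidney and 0 and 0.298 FPKM in liver, and Nppa had 325 and 199.8 FPKM in the hearts, against 1.48 and 1.51 FPKM in brain, 0 and 0.0436 FPKM in kidney and 0.318 and 0.159 FPKM in liver. Nppb was the higher of the pair in each heart. Corin, the protease that activates both peptides, had 20.8 and 14.0 FPKM in the hearts and at most 0.0973 FPKM in the 6 others. The receptors of the autonomic nerves were at lower levels: Adrb1, the main beta-adrenoceptor of myocytes, had 4.78 and 16.2 FPKM and Chrm2, the muscarinic receptor that slows the heart, had 16.7 and 8.36 FPKM, and both were higher than in each tissue. The lower gene was Agtr1a, an angiotensin receptor, with 2.27 and 2.01 FPKM in the hearts, against 0.464 and 0.133 FPKM in brain, 18.4 and 20.1 FPKM in kidney and 102 and 93.5 FPKM in liver (difference -2.13 ± 0.18, adjusted p = 1.75e-04). It was higher than in brain and lower than in kidney and liver.

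Of 21 tested cardiac transcription factors 15 were higher, 12 of them against each tissue, and 1 was lower (median 1.76). Here 8 passed the filter only through the hearts, and of the other 13, 8 were higher. Nkx2-5 and Tbx5, of the core network that specifies the heart, were listed at 0 in all 6 other libraries, with 14.2 and 71.2 FPKM and 10.1 and 12.1 FPKM in the hearts. Gata4, Gata6 and Hand2 of the same network were higher than in each tissue but were also present in liver. Gata4 had 48.9 and 51.8 FPKM in the hearts, against 0.0139 and 0.0197 FPKM in brain, 0.0266 and 0 FPKM in kidney and 13.1 and 15.5 FPKM in liver, and the difference from liver was 1.75 ± 0.20 log2 (adjusted p = 5.26e-04) beside 5.66 from brain. Mef2c, which also acts in neurons, was not called against brain (-0.57), at 10.1 and 7.94 FPKM in the hearts and 21.0 and 8.95 FPKM in brain. Irx4 and Hey2, which mark the ventricle, were higher than in each tissue. The lower factor, Nr2f2, which specifies atrial identity, had 2.51 and 5.67 FPKM in the hearts and 18.9 and 57.9 FPKM in kidney. Its call (-1.54 ± 0.29, adjusted p = 0.00463) was lost without either heart, with adjusted p of 0.0503 without the female and 0.0658 without the male. Tbx3, Irx3, Irx5 and Prox1 were not called.

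**Figure D2:**
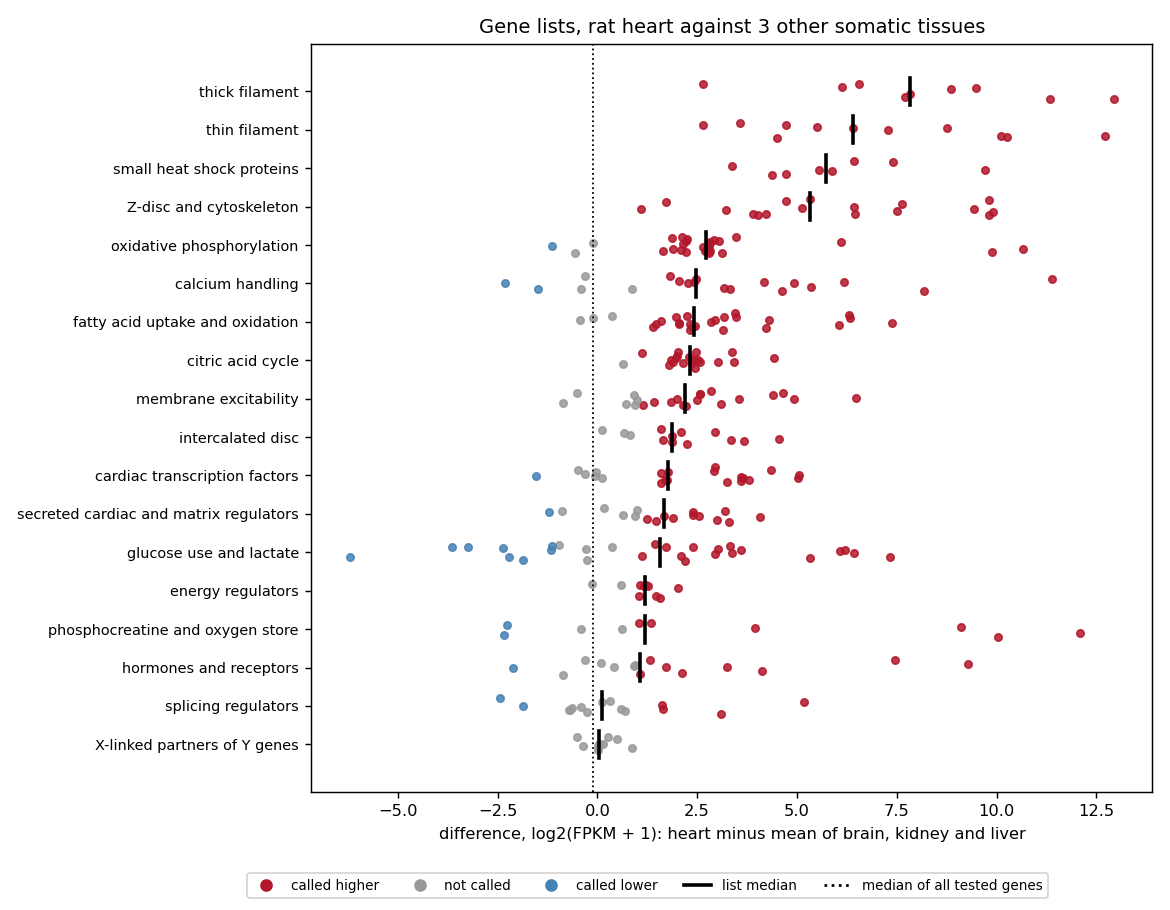
Difference in log2(FPKM + 1) between heart and the mean of brain, kidney and liver for every tested member of 18 gene lists; each point is 1 gene, red where called higher, blue where called lower and grey where not called, with a bar at the list's median and a dotted line at the median of all tested genes (-0.11). The sarcomere lists and the small heat shock proteins have red points only, while the glucose list has points of all 3 colours, with Pgam2 farthest right at 7.32.

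Of 26 tested genes of fatty acid use 23 were higher in heart, 12 of them against each tissue, with a median of 2.41. Of the 24 that passed the filter without the hearts 21 were higher. The size depended on the tissue set against heart, with medians of 4.67 against brain, 2.31 against kidney and 1.07 against liver, and 25, 24 and 13 genes higher in that order. The uptake genes Fabp3, Lpl and Cd36 were higher than in each of the 3 tissues, while Slc27a1, a fatty acid transport protein, was not called against brain. Fabp3, the fatty acid carrier of heart cytoplasm, had 5984 and 5891 FPKM in the hearts, against 33.9 and 41.2 FPKM in brain, 230.1 and 209 FPKM in kidney and 4.24 and 4.70 FPKM in liver. Lpl, the lipase that frees fatty acids from lipoproteins at the vessel wall, had 618 and 672 FPKM in the hearts and at most 36.3 FPKM elsewhere. Cd36, the membrane transporter, had 531 and 521 FPKM in the hearts, and the 2 livers differed from each other in it, at 79.0 and 6.15 FPKM. Cpt1b, the muscle form of the transferase that admits fatty acids to mitochondria, had 256 and 247 FPKM in the hearts, against 1.60 and 7.17 FPKM in brain, 5.19 and 3.31 FPKM in kidney and 1.15 and 1.46 FPKM in liver. Its liver form Cpt1a ran the other way, with 13.2 and 8.77 FPKM in the hearts and 23.4 and 52.3 FPKM in liver, and was lower than in liver by -1.61 ± 0.43 log2 (adjusted p = 0.0208) though not called on the mean (-0.44).

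Acadl, the long-chain dehydrogenase of beta-oxidation, was called against each tissue, with 1183 and 955 FPKM in the hearts, against 11.1 and 5.69 FPKM in brain, 64.0 and 65.2 FPKM in kidney and 294 and 230.5 FPKM in liver. Acadm, the medium-chain enzyme, had 812 and 869 FPKM in the hearts and 301 and 854 FPKM in liver, and the difference from liver was 0.73 ± 0.49 log2 (adjusted p = 0.275). The male liver reached the level of the hearts and the female liver did not. Acsl1, which activates fatty acids, was not called against liver (-0.93), where it had 765 and 519 FPKM, against 353 and 309 FPKM in the hearts. Pdk4, the fasting-induced brake on glucose oxidation, had 8.13 and 2.58 FPKM in the hearts and 98.4 and 21.2 FPKM in liver and was lower than liver by -3.04 ± 0.38 (adjusted p = 7.85e-04).

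The 28 genes of glucose use and lactate, all tested, had 16 members higher and 8 lower, with a median of 1.58. The members called lower were, with 1 exception, forms known from liver, kidney or brain, while the muscle forms of the same steps were higher. The exception was Slc2a1, the widespread glucose transporter that is also that of the blood-brain barrier. Slc2a4, the insulin-responsive transporter, had 241 and 166 FPKM in the hearts, against 0.642 and 1.60 FPKM in brain, 8.45 and 2.61 FPKM in kidney and 0.0376 and 0.0514 FPKM in liver, whereas Slc2a1 had 5.39 and 3.81 FPKM in the hearts and 24.5 and 19.2 FPKM in brain. The call of Slc2a1 as lower (-1.15 ± 0.32, adjusted p = 0.0223) was lost when any of 6 libraries was left out, with estimates from -1.43 without the female heart to -0.87 without the male heart. Aldoa, the muscle aldolase, had 1012 and 801 FPKM in the hearts, against 254 and 284 FPKM in brain, 208 and 254 FPKM in kidney and 25.9 and 17.1 FPKM in liver. Aldoc, the brain form, had 1.84 and 1.07 FPKM in the hearts and 495 and 465 FPKM in brain. Without brain in the fit the differences of Aldoc and of Eno2, the neuronal enolase, were 0.27 and 0.19, on the other side of 0 from their -2.36 and -2.22 here.

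Eno3, the muscle enolase, had 230.0 and 334 FPKM in the hearts and at most 4.81 FPKM elsewhere, beside Eno1, the general form, which was not called at 224 and 222 FPKM. Pygm, muscle glycogen phosphorylase, had 327 and 209 FPKM in the hearts, against 21.0 and 14.8 FPKM in brain, 0.875 and 1.08 FPKM in kidney and 0.665 and 0.481 FPKM in liver. Pygl, the liver form, had 0.468 and 0.757 FPKM in the hearts and 116 and 152 FPKM in liver. Ldhb, the lactate dehydrogenase subunit of tissues that oxidize lactate, had 2823 and 3166 FPKM in the hearts, against 245 and 215 FPKM in brain, 336 and 449 FPKM in kidney and 3.81 and 3.20 FPKM in liver, and it exceeded Ldha in each heart (429 and 352 FPKM). Liver had the opposite order, with Ldha at 553 and 981 FPKM.

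**Figure D3:**
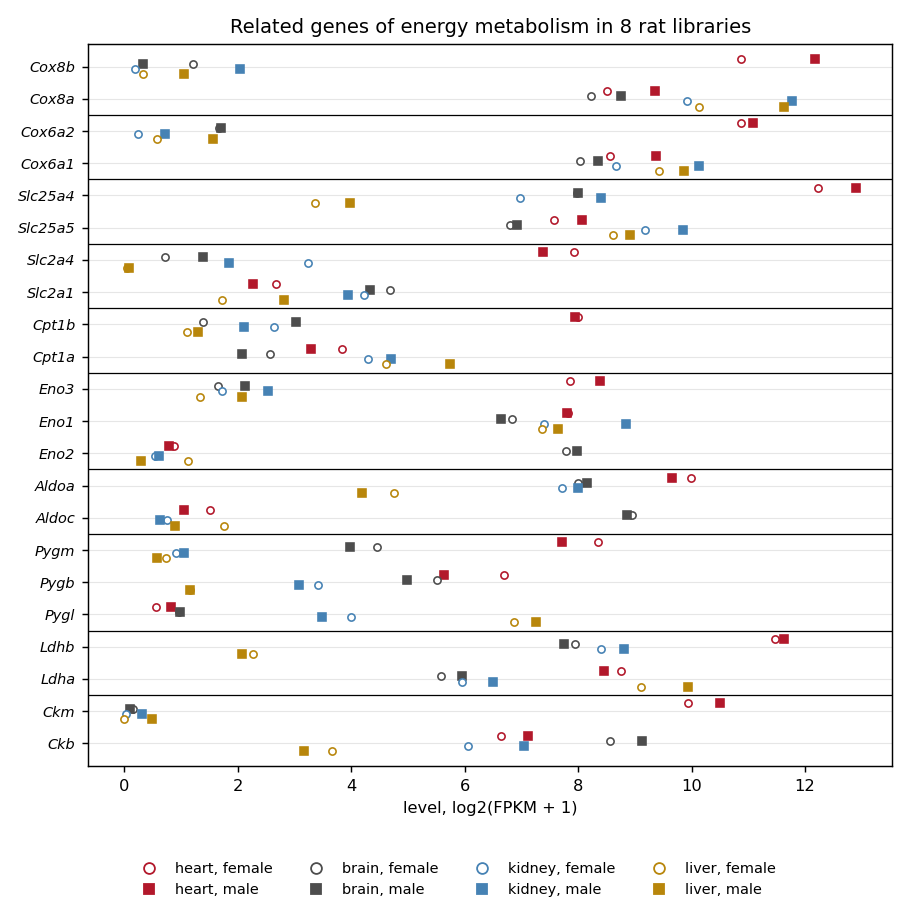
Levels of related genes of energy metabolism, as log2(FPKM + 1) on the horizontal axis, in the 2 heart libraries and the 6 libraries of brain, kidney and liver; each mark is 1 library, open circles female and filled squares male, and lines part the families. The heart marks lie farthest right in Cox8b, Cox6a2, Slc25a4, Slc2a4, Cpt1b, Eno3, Aldoa, Pygm, Pygb, Ldhb and Ckm, while Eno2 and Aldoc peak in brain and Pygl in liver.

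Of the 20 citric acid cycle genes, all tested, 19 were higher in heart, 15 of them against each tissue (median 2.33). Against brain alone all 20 were higher. Idh2, mitochondrial isocitrate dehydrogenase, had 1376 and 976 FPKM in the hearts, against 15.3 and 14.3 FPKM in brain, 173 and 171 FPKM in kidney and 42.5 and 72.2 FPKM in liver, and Cs, citrate synthase, the entry of the cycle, had 705 and 598 FPKM in the hearts, against 72.0 and 48.4 FPKM in brain, 61.1 and 77.5 FPKM in kidney and 45.1 and 59.6 FPKM in liver. The lower heart had 5.66 times the highest other library in Idh2 and 7.71 times in Cs. Suclg2, the GTP-forming subunit of succinate-CoA ligase, was the member not called (0.64), at 95.7 and 96.1 FPKM in the hearts, 109 and 175 FPKM in kidney and 113 and 149 FPKM in liver. Its ATP-forming counterpart Sucla2 was higher than in each tissue, at 199 and 254 FPKM in the hearts.

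Oxidative phosphorylation had 25 of 28 tested genes higher, 22 of them against each tissue, and 1 lower (median 2.73). Subunits that all tissues use were among them. Uqcrc2, a core subunit of complex III, had 2284 and 2115 FPKM in the hearts, against 155 and 121 FPKM in brain, 225 and 328 FPKM in kidney and 207 and 195 FPKM in liver (difference 3.48 ± 0.28, adjusted p = 1.63e-04). Atp5b, the catalytic subunit of ATP synthase, had 4658 and 5883 FPKM in the hearts, against 326 and 303 FPKM in brain, 791 and 2059 FPKM in kidney and 997 and 1356 FPKM in liver. In Atp5b the brains were lowest and the male kidney was the highest outside heart. The muscle subunits of cytochrome c oxidase differed far more. Cox8b had 1881 and 4607 FPKM in the hearts, against 1.30 and 0.252 FPKM in brain, 0.136 and 3.11 FPKM in kidney and 0.250 and 1.08 FPKM in liver, and Cox6a2 had 1862 and 2166 FPKM in the hearts, against 2.18 and 2.26 FPKM in brain, 0.187 and 0.648 FPKM in kidney and 0.489 and 1.94 FPKM in liver. Their general counterparts were not called higher in heart. Cox6a1 was not called (-0.11), and Cox8a had 365 and 654 FPKM in the hearts, against 298 and 429 FPKM in brain, 966 and 3491 FPKM in kidney and 1121 and 3158 FPKM in liver. Cox8a was called lower (-1.13 ± 0.37, adjusted p = 0.0379), and this call was lost when either heart or any of 4 other libraries was left out, with estimates of -1.36 without the female heart and -0.91 without the male heart. Of the ADP/ATP carriers, Slc25a4, the form of heart and muscle, had 4801 and 7626 FPKM in the hearts, against 252 and 253 FPKM in brain, 125 and 338 FPKM in kidney and 9.25 and 14.8 FPKM in liver. The general form Slc25a5, which was not called (-0.56), had 189 and 267 FPKM in the hearts and 576 and 923 FPKM in kidney. Together the fatty acid, citric acid cycle and oxidative phosphorylation lists made up 10.6% and 9.57% of nuclear FPKM in the hearts, against 1.26% to 4.00% in the other 6 libraries.

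Of 10 tested regulators of energy metabolism 8 were called higher on the mean (median 1.20). Ppara, the fatty acid sensing receptor, was the 1 gene of the 10 called against each tissue, at 8.93 and 7.45 FPKM in the hearts, against 0.180 and 0.0517 FPKM in brain, 1.69 and 2.54 FPKM in kidney and 1.60 and 3.47 FPKM in liver. Against brain 9 were higher, against kidney 1 and against liver 5. The count on the mean was 2 with a pseudocount of 5 and 4 with brain left out. It also depended on single libraries, at 5 without the female heart, 4 without the male heart and 5 without the male brain. Esrra, the estrogen-related receptor that drives mitochondrial genes, had 30.8 and 14.98 FPKM in the hearts, and its call was lost without the female heart, at 0.72. Ppargc1a, its coactivator, had 6.79 and 6.69 FPKM in the hearts, against 2.69 and 1.58 FPKM in brain, 7.69 and 4.83 FPKM in kidney and 1.04 and 0.311 FPKM in liver. The kidney and heart values overlapped in that gene, and its call on the mean was lost without the male heart (0.95). Klf15, which regulates amino acid and lipid use, was the lowest of the list (-0.13) and not called.

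In the phosphocreatine and oxygen store list, 6 of 10 tested genes were higher and 2 were lower (median 1.19), and of the 8 that passed the filter without the hearts 4 were higher. Mb, myoglobin, had 12058 and 7359 FPKM in the hearts, against 0.927 and 1.09 FPKM in brain, 0 and 1.66 FPKM in kidney and 1.59 and 2.48 FPKM in liver. Ckm, the muscle creatine kinase, had 984 and 1443 FPKM in the hearts and at most 0.396 FPKM elsewhere, and its mitochondrial partner Ckmt2 had 771 and 478 FPKM and at most 0.333 FPKM elsewhere. The brain form Ckb was not called on the mean (0.61) and was lower than in brain. Of the higher members, Slc6a8 and Cygb lost their calls without either heart. Their estimates were 0.72 and 1.34 without the female heart and 1.36 and 1.33 without the male heart. The genes that make creatine were the lower ones, Gatm with 13.9 and 18.7 FPKM in the hearts and 420.1 and 1818 FPKM in kidney, and Gamt with 19.1 and 17.4 FPKM in the hearts and 657 and 1024 FPKM in liver. The call of Gatm was lost without either heart (adjusted p = 0.0716 without the female and 0.0858 without the male), and that of Gamt without the male heart (adjusted p = 0.0954). The 8 genes of the list of small heat shock proteins, which protect sarcomere proteins, with 1 co-chaperone, were all higher than in each tissue, with a median of 5.72. Hspb7, found mainly in heart and muscle, had 1168 and 1741 FPKM in the hearts, against 0.146 and 0.133 FPKM in brain, 1.27 and 2.49 FPKM in kidney and 0.354 and 0.805 FPKM in liver, and Hspb6, a phosphoprotein of the same family, was the most abundant at 3632 and 6218 FPKM. Bag3, their co-chaperone, had the smallest difference (3.37 ± 0.54), at 84.1 and 219 FPKM in the hearts and up to 36.6 FPKM elsewhere.

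Splicing regulators were mixed, with 4 of 15 tested genes higher and 2 lower (median 0.11). Rbm24 and Rbm20, which control muscle splicing and titin splicing, were higher than in each tissue. Rbm20 had 8.49 and 10.5 FPKM in the hearts, against 0.130 and 0.0467 FPKM in brain, 0.893 and 0.476 FPKM in kidney and 0.0167 and 0 FPKM in liver, and Rbm24 had 73.6 and 50.6 FPKM in the hearts. Rbfox1, shared by muscle and neurons, was lower than in brain (-1.67) and higher than in kidney (3.42) and liver (3.12). Esrp2, an epithelial splicing factor, was the lowest of the list, at 0.372 and 0.196 FPKM in the hearts, 8.84 and 7.88 FPKM in kidney and 34.2 and 33.2 FPKM in liver (-2.45 ± 0.16, adjusted p = 6.64e-05). Ptbp1, a repressor of muscle and neuronal exons, was not called on the mean but was higher than in brain (1.15) and lower than in kidney (-1.48) and liver (-1.59).

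Among secreted cardiac factors and matrix regulators 11 of 17 tested genes were higher and 1 was lower (median 1.67). Of the 17, 4 passed the filter only through the hearts, and 8 of the other 13 were higher. Fgf16, a growth factor made by myocytes, had 16.6 and 17.9 FPKM in the hearts, against 0.277 and 0.196 FPKM in brain, 0.0224 and 0.0694 FPKM in kidney and 0 and 0 FPKM in liver. Vegfb, a vascular growth factor tied to fatty acid transport, had 78.8 and 55.2 FPKM in the hearts and at most 10.7 FPKM elsewhere, beside Vegfa, at 66.5 and 60.9 FPKM, whose difference lay just under the threshold of 1. Fgf12 and Fgf13, intracellular partners of sodium channels, were higher than in kidney and liver but not called against brain. Fgf12 had 36.5 and 44.7 FPKM in the hearts, against 52.1 and 57.0 FPKM in brain, 0.548 and 1.39 FPKM in kidney and 0.203 and 0.478 FPKM in liver. Gdf15, a stress hormone, was called lower (-1.21 ± 0.40, adjusted p = 0.0393), a call lost without either heart and without 4 other libraries, with estimates of -1.08 without the female heart and -1.35 without the male heart. Its values in the hearts were 0.459 and 3.10 FPKM. Timp3, an inhibitor of matrix proteases, was higher than in brain and liver and lower than in kidney.

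Of the 15 largest positive differences, all but 1 belonged to genes named above. The other was a gene without a symbol (ENSRNOG00000023227) on chromosome 3, with 948 and 1509 FPKM in the hearts and at most 0.382 FPKM elsewhere (10.00 ± 0.18). The most abundant nuclear rows in heart were, after Myl2, Actc1 and Pln, a gene without a symbol (ENSRNOG00000045749), the ribosomal protein gene RPS29, Mb, Slc25a4, Atp5l, a subunit of ATP synthase, Fabp3 and Chchd10, a mitochondrial protein. Atp5l had 4843 and 7059 FPKM in the hearts, against 379.6 and 469 FPKM in brain, 679 and 1926 FPKM in kidney and 1119 and 1679.6 FPKM in liver. RPS29 was not called (1.22), with 7389 and 17466 FPKM in the hearts and 5963 and 18714 FPKM in liver, and its symbol stands on 3 rows of the table. Chchd10 (2.52 ± 0.57) and the gene without a symbol (2.55 ± 0.57) were called higher, but neither passed without the female heart (adjusted p = 0.131 and 0.159) or without the male heart (adjusted p = 0.0769 and 0.0943).

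Of the genes lower in heart than in each of the 3 tissues, the 8 with the most negative differences were named. Rbp4, the plasma carrier of retinol, had 0.362 and 5.40 FPKM in the hearts, against 12.9 and 24.7 FPKM in brain, 66.5 and 99.3 FPKM in kidney and 4488 and 10242 FPKM in liver (difference -6.22 ± 0.34, adjusted p = 3.59e-05). The male heart was above the female heart in this gene, and both lay below every other library. Abat, which breaks down the transmitter GABA, had 0.120 and 0.134 FPKM in the hearts, against 30.5 and 17.8 FPKM in brain, 33.9 and 42.4 FPKM in kidney and 137 and 214 FPKM in liver. Mal2, a protein of polarized membrane traffic, had 0.269 and 0.0462 FPKM in the hearts, against 36.4 and 63.1 FPKM in brain, 38.1 and 66.4 FPKM in kidney and 54.0 and 106 FPKM in liver. In Mal2 the ranges of brain, kidney and liver overlapped one another, and both hearts lay below them. Agt, the precursor of angiotensin, had 0.0840 and 0.689 FPKM in the hearts, against 65.0 and 33.2 FPKM in brain and 396 and 1511 FPKM in liver. Dao, which oxidizes D-amino acids, Hrsp12, an imine deaminase, Fah, the last enzyme of tyrosine breakdown, and GJB1, connexin 32, made up the rest of the 8 most negative, with differences of -5.95, -6.16, -5.56 and -5.42. The gap junction family thus held the 4.55 of Gja1 and the -5.42 of GJB1.

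The genes for which brain differed most from kidney and liver were also named. Those called higher with the widest gap included Ndrg4, Eef1a2, Cpe and Snurf. Eef1a2, the elongation factor form of muscle and neurons, had 128 and 451 FPKM in the hearts, against 129 and 225 FPKM in brain, 0.0458 and 0.473 FPKM in kidney and 2.12 and 0.899 FPKM in liver. It was not called against brain (0.49 ± 0.53, adjusted p = 0.483). Ndrg4, a cytoplasmic protein of heart and brain, had 201 and 145 FPKM in the hearts, against 409.5 and 299 FPKM in brain, 7.60 and 2.74 FPKM in kidney and 2.61 and 0.202 FPKM in liver and was lower than in brain by -1.03 ± 0.34 (adjusted p = 0.0403). The row with the symbol Snurf, that of an imprinted gene strong in brain, was lower than in brain (-1.84) and higher than in kidney (2.93) and liver (4.31). It lies on chromosome 17, and its symbol stands on 2 rows of the table. The call of Cpe, a processing enzyme of peptide hormones, was lost without either heart (adjusted p = 0.121 without the female and 0.147 without the male). Those called lower with the widest gap included Hpd, an enzyme of tyrosine breakdown, Spink1, a trypsin inhibitor, Snap25, a synaptic vesicle fusion protein, and a gene without a symbol (ENSRNOG00000029861). Snap25 had 1.68 and 0 FPKM in the hearts, against 757 and 979 FPKM in brain, 0.291 and 0.523 FPKM in kidney and 5.21 and 0.0518 FPKM in liver, and its call came from brain alone. That call was lost without the male heart (adjusted p = 0.0697), and the call of Spink1 without either heart (adjusted p = 0.0529 without the female and 0.111 without the male).

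Counted over all genes, 387 of the 2421 higher genes were not called higher against brain, 555 not against kidney and 538 not against liver, while 18, 3 and 12 were lower than in those tissues. Of the 2519 lower genes 538 were called against brain alone, 416 against liver alone and 237 against kidney alone, and 664 against kidney and liver but not brain.

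**Figure D4:**
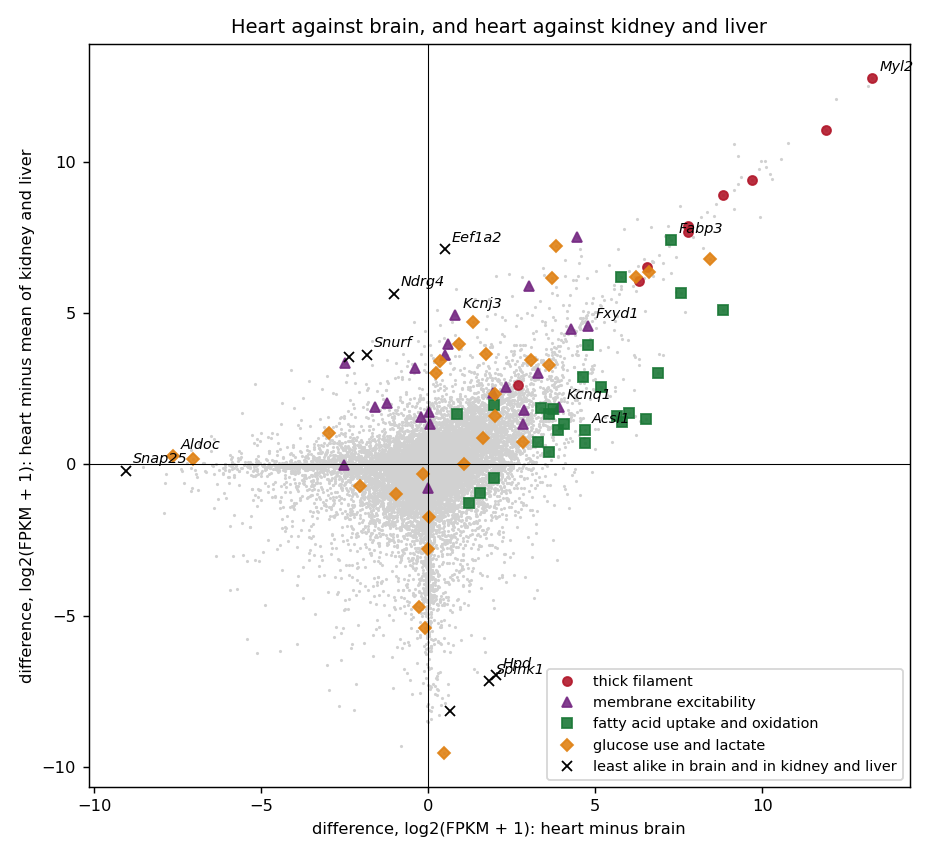
Difference in log2(FPKM + 1) between heart and brain (horizontal) against that between heart and the mean of kidney and liver (vertical) for the 14547 tested genes; grey points are all genes and coloured marks are 4 lists and 8 of the genes whose brain difference was least like the other. Both axes use the same heart libraries, so the diagonal trend is not a result; Myl2 stands at the upper right, Eef1a2 and Ndrg4 lie high near the vertical axis, and Snap25 lies far left.

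Markers of the other cells of the heart differed along with the myocyte genes. Endothelial markers were higher in 12 of 13, with a summed level of 1080 and 746 FPKM in the hearts and 56.6 to 195 FPKM in the other 6 libraries. Cdh5, the cadherin of endothelial junctions, had 37.2 and 36.2 FPKM in the hearts, against 1.89 and 1.38 FPKM in brain, 3.17 and 3.23 FPKM in kidney and 2.48 and 2.50 FPKM in liver, and Cldn5, a tight junction gene that brain vessels use strongly, was not called. Fibroblast markers were higher in 9 of 10, summing to 951 and 1621 FPKM in the hearts and 46.8 to 342 FPKM elsewhere. Dcn, decorin, a matrix proteoglycan, had 344 and 823 FPKM in the hearts, against 15.8 and 8.75 FPKM in brain, 67.2 and 149 FPKM in kidney and 8.40 and 17.3 FPKM in liver. Pdgfra was not called, and Tcf21 lost its call without either heart and stood at -0.05 without brain in the fit. Smooth muscle and pericyte markers were higher in 3 of 6 tested, among them the pericyte gene Rgs5 (142 and 123 FPKM in the hearts, at most 16.7 FPKM elsewhere), while Myh11 and Tagln were not called. Of 5 mesothelial markers tested 4 were higher, but 3 of the 5 passed the filter only through the hearts, 1 of the other 2 was higher, and the count was 2 with a pseudocount of 5. They summed to 40.4 and 25.8 FPKM in the hearts.

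Of 8 immune cell markers tested by limma 0 were called on the mean of the 3 tissues, and 0 had an unadjusted p under 0.05. Against single tissues, 5 were lower than in liver and 1 higher, 1 was lower than in kidney and 1 higher, and 2 were higher than in brain. Their sum in the hearts (97.5 and 132 FPKM) lay within that of the other 6 libraries (66.9 to 264 FPKM). Red cell genes were higher in 4 of 5, with Hbb at 2407 and 2906 FPKM in the hearts and 163 to 575 FPKM in the others. Without the male heart the count was 2. Of neuron and Schwann cell markers 7 of 9 were lower, and of astrocyte and oligodendrocyte markers 6 of 6, each lower than in brain. The 7 became 4 without the male heart. Among the astrocyte and oligodendrocyte markers, Mog lost its call without either heart, at -1.13 without the female and -2.01 without the male. Mbp lost its call without the female heart, at -2.52. The sums of the neuron and Schwann cell list and of the astrocyte and oligodendrocyte list in the hearts were at most 7.21 and 3.00 FPKM. Hepatocyte markers summed to 72.5 and 174 FPKM in the hearts, against 49554 and 66652 FPKM in liver, and 7 of 10 were lower. Alb was called higher in heart (12.5 and 97.5 FPKM), a call that uses the 0 listed in both livers and was lost without the male heart (adjusted p = 0.0551). Of 3 adipocyte markers tested, Cidea, a lipid droplet gene, was higher (66.9 and 59.3 FPKM in the hearts), and Adipoq, Plin1 and Ucp1, which define fat cells, were at 0.0149 FPKM or less in them. Of all 7 listed adipocyte markers, Cidea among them, 2 had at least 1 FPKM in both hearts and 3 were listed at 0 in both. The 7 summed to 69.2 and 62.9 FPKM in the hearts. The part these other cells play in the differences of the lists above was not tested.

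**Figure D5:**
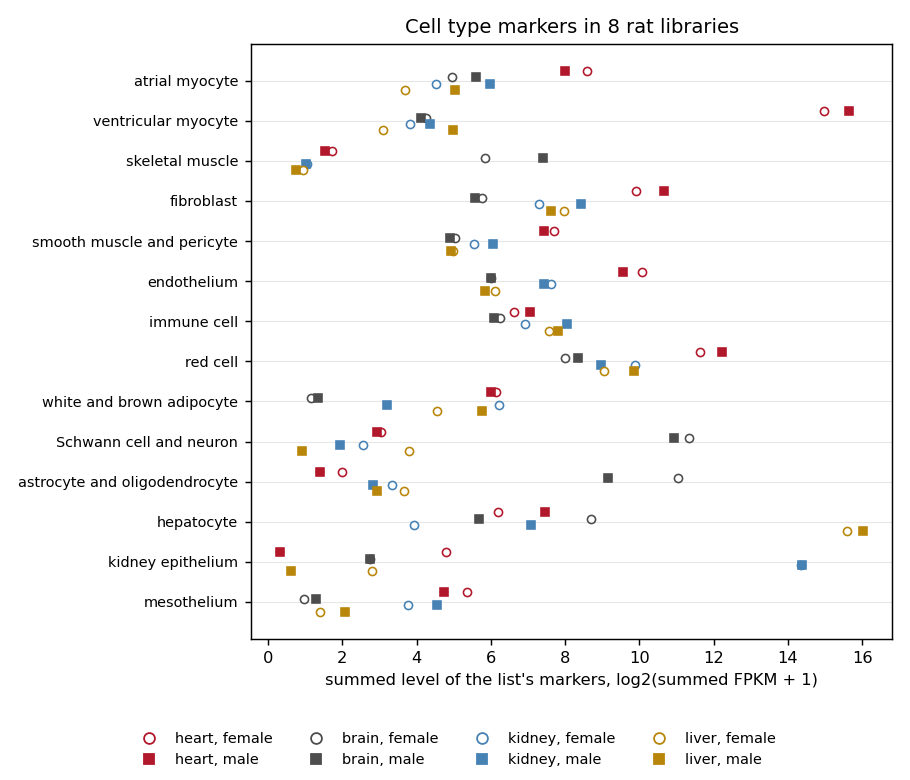
Summed FPKM of 14 marker lists in the 2 heart libraries and the 6 libraries of brain, kidney and liver, as log2(sum + 1) on the horizontal axis; each mark is 1 library, open circles female and filled squares male. Heart marks lie farthest right for ventricular and atrial myocytes, fibroblasts, smooth muscle, endothelium, red cells and mesothelium, and far left of brain, liver and kidney for the markers of those tissues.

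The series centres on sex-linked genes. Of 438 tested X-linked genes 77 (17.6%) were higher, against 16.6% of autosomal genes. Of the 12 Y-linked rows 5 passed the filter. They were at 0 in all 4 female libraries, which fixes the female difference at 0 and leaves the fit without meaning for them, so the male values are given with no test. In the male heart EIF2S3Y had 39.1 FPKM, against 18.6 FPKM in male brain, 27.6 FPKM in male kidney and 30.4 FPKM in male liver. DDX3Y, an RNA helicase, had 19.5 FPKM in male heart, against 13.6, 9.70 and 15.8 FPKM in those 3 tissues. UTY, KDM5D and Med14X had 5.38, 2.67 and 1.65 FPKM in male heart. The other 7 rows were listed at 0 there, and all 12 were at 0 in every female library. Of the 9 X-linked partners of Y genes 0 were called by limma on the mean (median 0.05), and 2 had an unadjusted p under 0.05. Usp9x, a deubiquitinase, was the highest at 0.86 and was called higher against kidney and liver. Of these 9, Kdm5c was the lowest, at -0.52.

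Testis and ovary, which took no part in choosing the genes, were set beside heart as single libraries with no test. Of the 1239 genes higher in heart than in each of the 3 tissues, 544 (43.9%) lay at least 2 log2 units above both gonads in both hearts, against 5.31% of all tested genes. The same heart values enter both sides of that comparison. In 135 genes testis or ovary was above both hearts. Among the listed genes Myl4 had 17.0 FPKM in testis, against 10.9 and 5.42 FPKM in the hearts, and Ctnna3, a catenin of the intercalated disc, had 37.8 FPKM in testis, against 4.79 and 3.86 FPKM in the hearts. Cpt1b (161 FPKM) and Pgam2 (191 FPKM), otherwise muscle genes, were also high in testis, though below the hearts.

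Every called gene had the same sign in the female and in the male comparison. The calls and the signs come from the same 8 columns, so the calling made this likely beforehand. Between the 2 hearts the median absolute gap was 0.28 log2, and 92 tested genes differed by at least 2, of which 23 were higher in the female. Since the labels name 1 female and 1 male per tissue, animal and sex cannot be told apart. In 16 genes the animals differed by 1 log2 unit or more, the same way round in heart, brain, kidney and liver, 14 of them higher in the male, including the 5 tested Y-linked rows. Of the plasma protein genes among them, Fetub had 1.42 and 14.1 FPKM in the hearts and Hp, haptoglobin, had 1.57 and 11.6 FPKM.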

How the data were processed

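The deposited rat table holds FPKM values of the authors for 20486 rows, which they call normalized. Any scaling between libraries beyond FPKM itself was not checked. The submitters' processing notes list Cufflinks 2.0.0 beside TopHat 1.4.0. The build, the annotation and any use of strand are not stated there or in the labels, and FPKM from these tools can split reads between related genes. The 13 mitochondrial rows were left out. Here values were set on log2(FPKM + 1), rows with at least 1 FPKM in at least 2 of 8 libraries were kept (14547 of 20473), and limma 3.58.1 (R 4.3.3) was fitted with tissue and animal as terms and a mean-variance trend. No count model was used. Calls needed a Benjamini-Hochberg adjusted p under 0.05 and a difference of at least 1. The fit had 3 residual degrees of freedom and was tested on simulated data. The block rests on labels naming 1 female and 1 male per tissue and on male-minus-female gaps that correlated between all tissue pairs (r from 0.142 to 0.515 across genes). Tissues from different animals of the same sex could correlate as well, so these gaps cannot show a shared animal. The labels do not state outright that the tissues share an animal, so p-values measure the spread between these columns, which may be technical. A symbol on several rows was read from its most abundant row. Outside the lists, the genes named are the 15 with the largest positive differences, the 8 most negative among those lower than in each tissue, the 10 most abundant in heart, the tested Y-linked rows, and 5 in each direction for which brain was least like kidney and liver. Members and lists were chosen with earlier results of these data known. The alternatives were other pseudocounts, filters and scalings, no block, no trend, brain left out and each library left out. Some genes that these rules name are not reported here.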

Additional observations from a re-analysis of the deposited data

Results flagged for a closer look

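The mitochondrial rows, which took no part in the comparisons, summed to 2703350 FPKM in the female heart and 2780195 FPKM in the male heart, against 367813 to 1030081 FPKM in the brain, kidney and liver libraries, 90015 FPKM in testis and 186126 FPKM in ovary. They were looked at again because this signal lies outside the tested rows and above every other library. Of the 13 rows, 4 were listed at 0 in both hearts (COX1, MT-ATP6, ATP8 and MTCO3). Of these 4, 3 were also at 0 in the female kidney and 4 in the male kidney, and 0 of the 13 rows were at 0 in brain and liver, so the sums cover different rows. COX2 had 862423 and 887427 FPKM in the hearts.

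For 3 genes the 2 animals moved in opposite directions by at least 2 log2 units, a difference between the animals that was not tested. Top1, DNA topoisomerase I, stood at -2.45 in the female and 4.81 in the male, with 0 and 113 FPKM in the hearts. The gene 1700086L19Rik stood at 2.70 in the female and -2.61 in the male, with 39.3 and 0 FPKM in the hearts. The row ENSRNOG00000048980 stood at -4.59 in the female and 3.56 in the male, with 0 and 92.5 FPKM in the hearts. Each of the 3 was listed at 0 in 1 of the hearts, and 12 genes in all were opposite by at least 1. Groups of 2 are too small to test for outlying samples.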

How the results depend on the processing

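The counts of 2421 higher, 2519 lower, 1239 higher than each tissue and 232 lower than each tissue stayed within 1.5 times under no filter on low values, a filter of 5 FPKM, no mean-variance trend, quantile normalization and median centring. Median centring gave 2115 higher, 3050 lower, 1095 higher than each and 348 lower than each, the last at the limit of 1.5 times. With the replicate block taken out they were 2291, 2396, 1147 and 195, and Chchd10, Cpe, Nr2f2, Dlst, Cox8a, Gdf15 and Nr2f1 were among the named genes that lost their call. A pseudocount of 0.1 gave 524 genes lower than each tissue, and one of 5 gave 1566 higher, 1205 lower and 55 lower than each. With brain left out, 1011 genes were lower than each of the remaining tissues, which are fewer by construction. Differences then changed sign for Pfkp (1.04), Aldoc (0.27), Eno2 (0.19), Tcf21 (-0.047), Gad1 (0.44) and Slc1a3 (0.37).

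Leaving out 1 library gave 1980 to 2505 higher, 1900 to 2551 lower, 953 to 1199 higher than each and 126 to 209 lower than each, the 126 without the male heart. With 1 heart left, the lone sample is assumed to vary like the other groups. A gap of 1 in place of 2 put 845 of the 1239 genes above both gonads. Of 408 tested named genes 321 were called. Of these, 79 missed the threshold with the same sign in at least 1 alternative, and 5 changed sign in at least 1. Keeping only rows above 0 in all 8 libraries, chosen after seeing the data, gave 2123 higher and 1680 lower. It also gave 8 higher membrane excitability genes in place of 16, 8 transcription factors in place of 15, 3 phosphocreatine and oxygen store genes in place of 6 and 1 splicing regulator in place of 4. The missing members were not tested in this setting, as a row at 0 in any library was dropped. Of the named genes still tested, 317 kept their result and 1 gained a call. With brain left out, 5 glucose genes were lower in place of 8. Median centring moved the median of all tested genes to -0.24. A search of promoters for motifs was planned and not run. Depth is unknown, so no counting interval can be given, and 268 lower genes were listed at 0 in both hearts, where the fold is not known.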

Other observations

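Muscle genes on the X chromosome were among the largest differences of that chromosome, and they were chosen after their values were seen. Smpx, the small muscle protein of the costamere, had 554 and 785 FPKM in the hearts, against 0.642 and 3.53 FPKM in brain, 11.3 and 12.0 FPKM in kidney and 0.111 and 0 FPKM in liver. Its difference was 7.64 ± 0.32 log2 (limma, adjusted p = 1.34e-05). Fhl1, a LIM protein tied to inherited myopathy, had 469 and 593 FPKM in the hearts, against 40.3 and 39.2 FPKM in brain, 16.7 and 47.3 FPKM in kidney and 2.33 and 3.06 FPKM in liver, a difference of 5.01 ± 0.31 (adjusted p = 5.69e-05). Itgb1bp2, melusin, an integrin partner of striated muscle, had 254 and 161 FPKM in the hearts, against 0.127 and 0.261 FPKM in brain, 0.694 and 0.281 FPKM in kidney and 1.01 and 1.21 FPKM in liver. In each of the 3 both hearts lay above all 6 other libraries, as they did in 2357 of all tested genes (16.2%). The choice of large differences made this likely beforehand.

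Genes higher in heart than in the 3 tissues and higher still in testis were also seen, again chosen after their values were seen. Lrrc27 had 6.55 and 6.62 FPKM in the hearts, at most 1.05 FPKM in brain, kidney and liver, and 170.2 FPKM in testis. Tdrd1, a germline tudor protein, had 1.19 and 1.59 FPKM in the hearts, at most 0.0619 FPKM in the 3 tissues and 46.1 FPKM in testis. Mlf1 had 84.8 and 87.6 FPKM in the hearts, at most 0.724 FPKM in the 3 tissues and 158 FPKM in testis.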
